A study of Homo sapiens with 18 samples.

Results

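Ribosomal protein genes were examined in RNA-seq libraries of RWPE1, an established benign human prostate epithelial cell line. The genes were the rows of the gene count table named as large subunit proteins (RPL), small subunit proteins (RPS), stalk proteins (RPLP0, RPLP1, RPLP2) or RPSA, together with ATG10 and SH3D19, whose exons lie opposite RPS23 and RPS3A. This gave 85 of the 57773 rows: 46 RPL rows, 3 stalk rows, 34 small subunit rows and 2 rows on the opposite strand. Of these, 79 reached 10 counts in at least 3 of the 18 libraries and were tested among 5816 rows in all.

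Each cell line carried 1 tamoxifen-inducible MACC construct, which joins the DNA-binding domain of a transcription factor to the ERT2 hormone-binding domain and a 3X FLAG tag. The neutral construct (3X) has no further effector, the repressive construct carries KRAB and the activating construct carries VP64. The constructs were delivered in a lentiviral backbone with a PGK promoter, and infected cells were selected with blasticidin, so that the vehicle controls carried the construct too; whether single clones were picked is not given in the sources used here. Ethanol, as the vehicle, or tamoxifen was given for 48 hours, with 3 biological replicates in each of the 6 groups. The labels state the tamoxifen dose as 1.5 uM in one field and as 1.25 uM in another. They do not say how the replicate cultures were separated, so the p-values measure the spread between these libraries.

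The cytosolic ribosome is built from a small subunit, which reads the mRNA, and a large subunit, which forms the peptide bond and carries the stalk that recruits elongation factors. Its protein mRNAs are transcribed from unlinked genes, are among the most abundant mRNAs of dividing epithelial cells and are needed in matched amounts for subunit assembly. Most begin with a 5′ terminal oligopyrimidine (TOP) tract, a cytosine at the first base followed by further pyrimidines, through which mTOR and the binding protein LARP1 control their translation and stability.

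The start sequences of the members that the results below turn on are shown to let a reader see this tract. Each is a 30-base window, 15 bases before and 15 bases from the first transcribed base, taken from RefSeq on GRCh38.p14, a later build than the GRCh37 of the count table. Capitals mark the unbroken run of C and T that covers the start base, read on the strand of the gene. The run can begin before the first transcribed base, so it can be longer than the tract of the mRNA. Where a gene had several annotated starts, the start with the longest run was used, here and in the counts of runs.
RPL13A (chr19:49487593-49487622, plus strand): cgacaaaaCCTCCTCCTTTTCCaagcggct
RPLP0 (chr12:120201097-120201126, minus strand): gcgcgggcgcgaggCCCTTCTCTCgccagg
RPS18 (chr6:33272060-33272089, plus strand): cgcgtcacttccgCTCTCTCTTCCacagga
RPL7A (chr9:133348203-133348232, plus strand): ccacaaTTCCCTTTCCTTTCTCTCTCCTCC
RPL3 (chr22:39319609-39319638, minus strand): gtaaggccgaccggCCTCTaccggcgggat
RPL12 (chr9:127451392-127451421, minus strand): ccgcgcgatttccggCCTCTCggctttcgg
RPL4 (chr15:66504841-66504870, minus strand): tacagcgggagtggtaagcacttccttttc
RPS23 (chr5:82278340-82278369, minus strand): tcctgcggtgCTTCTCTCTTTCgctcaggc
RPS3A (chr4:151099613-151099642, plus strand): cgactcccacttccgCCCTTTTggctctct
RPL13A, RPLP0, RPS18, RPL7A and RPS23 hold a run of 8 or more pyrimidines over the annotated start, whereas RPL3, RPL12 and RPS3A hold shorter runs and RPL4 has none there. Of the 64 members with a RefSeq entry, 45 (70.3%) held a run of at least 8 bases of C and T over the start, against 1623 of 27305 gene symbols (5.94%). Members and all symbols were counted at the annotated start with the longest run, which favours runs in both. The match describes that annotated start, which can differ from the start used in these cells.

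Total counts per library ranged from 675609 to 792282, with a median of 755562, which places the limit that 3 counts set for a row with 0 counts at 3.79 to 4.44 CPM, for counting error only. The cells had counts at the 6 basal epithelial markers, led by KRT5 (680 to 1135 counts per library), and at the luminal keratin KRT8 (513 to 1011), while the luminal marker KLK3 was at 0 in all 18 libraries. Summed over their lists, fibroblast markers reached at most 13 counts in a library, leukocyte markers at most 3 and endothelial markers 0.

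The 83 ribosomal protein rows on their own strand together held between 0.759% and 1.46% of the counts of a library. In the neutral line their share was 1.25% ± 0.1002 with vehicle and 1.27% ± 0.0616 with tamoxifen (SD, n = 3 each). In the activating line it was 1.295% ± 0.0994 and 1.40% ± 0.0476. In the repressive line the share was 1.23% ± 0.0834 with vehicle and 0.817% ± 0.0870 with tamoxifen, and the 3 tamoxifen libraries, at 0.759% to 0.917%, lay below all other 15 libraries. Libraries were made from bulk cultures, so that fewer cells with these mRNAs and fewer mRNAs per cell cannot be told apart.

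The ATG10 row alone held 1.23% ± 0.0313 of the counts in the neutral vehicle libraries (SD, n = 3), close to the sum of the 83 rows. In the repressive line ATG10 held 1.06% ± 0.0396 with vehicle and 0.746% ± 0.0531 with tamoxifen. ATG10 (ENSG00000152348, chr5:81267842-81572676, plus strand, GRCh37), an enzyme of autophagy, shares 374 exonic bases (chr5:81571964-81572337) with RPS23 on the other strand. SH3D19 (ENSG00000109686, chr4:152023903-152246757, minus strand), an SH3-domain protein, shares 262 exonic bases (chr4:152024023-152024284) with RPS3A. Per kilobase of exon, ATG10 averaged 1474 normalized counts (counts divided by the size factor of the library) and RPS23 19.9, while SH3D19 averaged 811 and RPS3A 25.7. The own-strand row held a median of 1.08% of the counts of both rows at RPS23 and 0.911% at RPS3A. The libraries came from a stranded kit, and the strand setting used in counting is not given in the sources used here, so from which strand the reads of a row came cannot be told from the table. The values below are therefore counts assigned to a row, and how far the ATG10 and SH3D19 rows hold reads of the ribosomal protein mRNAs, or the own-strand rows miss them, was not tested.

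**Figure D1:**
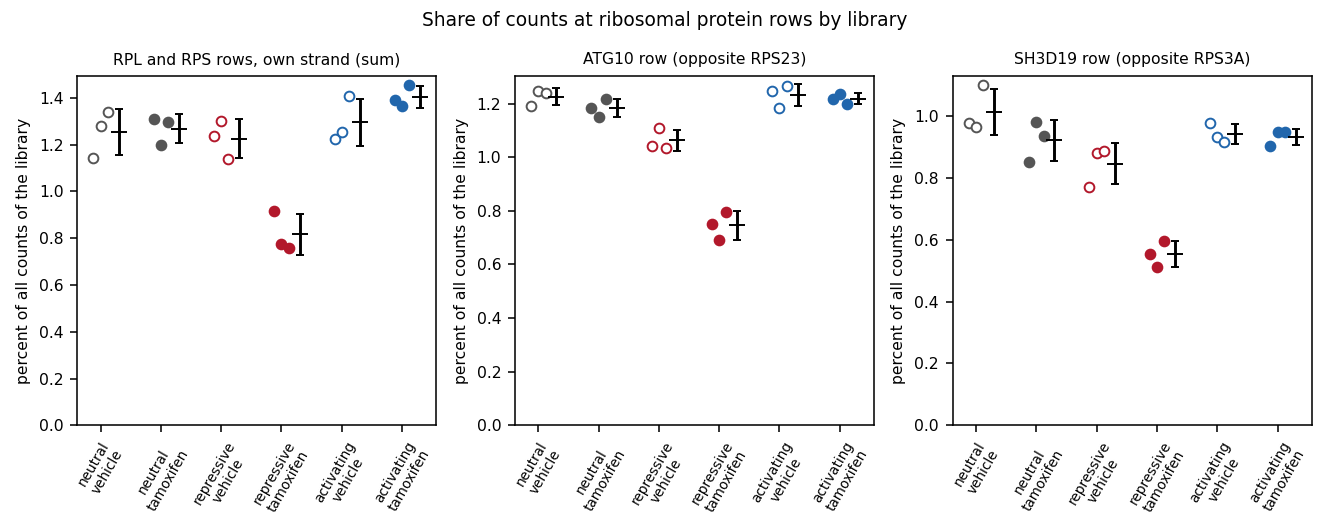
Share of all counts of a library (percent, y axis) in the summed own-strand ribosomal protein rows (left), ATG10 (middle) and SH3D19 (right), for the 6 groups on the x axis; open circles are vehicle libraries, filled circles tamoxifen libraries, and the bar is the mean ± SD of 3. In each panel the 3 repressive tamoxifen libraries lie lowest, between 0.759% and 0.917% for the summed rows.

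Among the own-strand rows, those with the most counts were RPL10 (mean 539 normalized counts over the 18 libraries), RPL13 (488) and RPS2 (468). Per kilobase of exon the order differed, with RPS2 at 196, RPS25 at 179 and RPL41, which encodes a very small basic peptide, at 159. A further 6 rows did not reach the filter. RPL10L, a retrocopy of RPL10 expressed in testis, was at 0 in all 18 libraries, and RPL39L, RPL3L, RPS27L and RPS10L averaged 2.48, 2.14, 1.98 and 0.382 normalized counts.

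Tamoxifen against vehicle in the repressive line asked whether inducing the KRAB construct changed these rows. This comparison holds the effects of the drug, of the DNA-binding domain and of KRAB together. Counts in ribosomal protein rows were lower with tamoxifen: 19 of the 79 tested rows fell and 0 rose by the DESeq2 Wald test at an adjusted p under 0.05. Across all 5816 rows, 4.02% fell and 5.62% rose. The rows that fell were 10 large subunit rows other than the stalk and its base (RPL3, RPL4, RPL5, RPL6, RPL7A, RPL13, RPL13A, RPL23, RPL28 and RPL29), the stalk row RPLP0, its neighbour RPL12, 5 small subunit rows, RPS2, RPS3 and RPS18 among them, and ATG10 and SH3D19. The median log2 fold change was -0.44 over the 79 rows and -0.02 over all rows, and 78 of 79 estimates were negative. At an unadjusted p under 0.05, 39 rows were lower and 0 higher, against 9.39% and 10.3% of all rows.

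Estimates ranged from -1.21 for RPL5 to 0.43 for RPS13, the single positive estimate (SE 0.79, no adjusted p). All 3 tamoxifen values lay below all 3 vehicle values in 33 of 79 rows and above them in 0, against 11.6% and 12.6% of all rows.

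**Figure D2:**
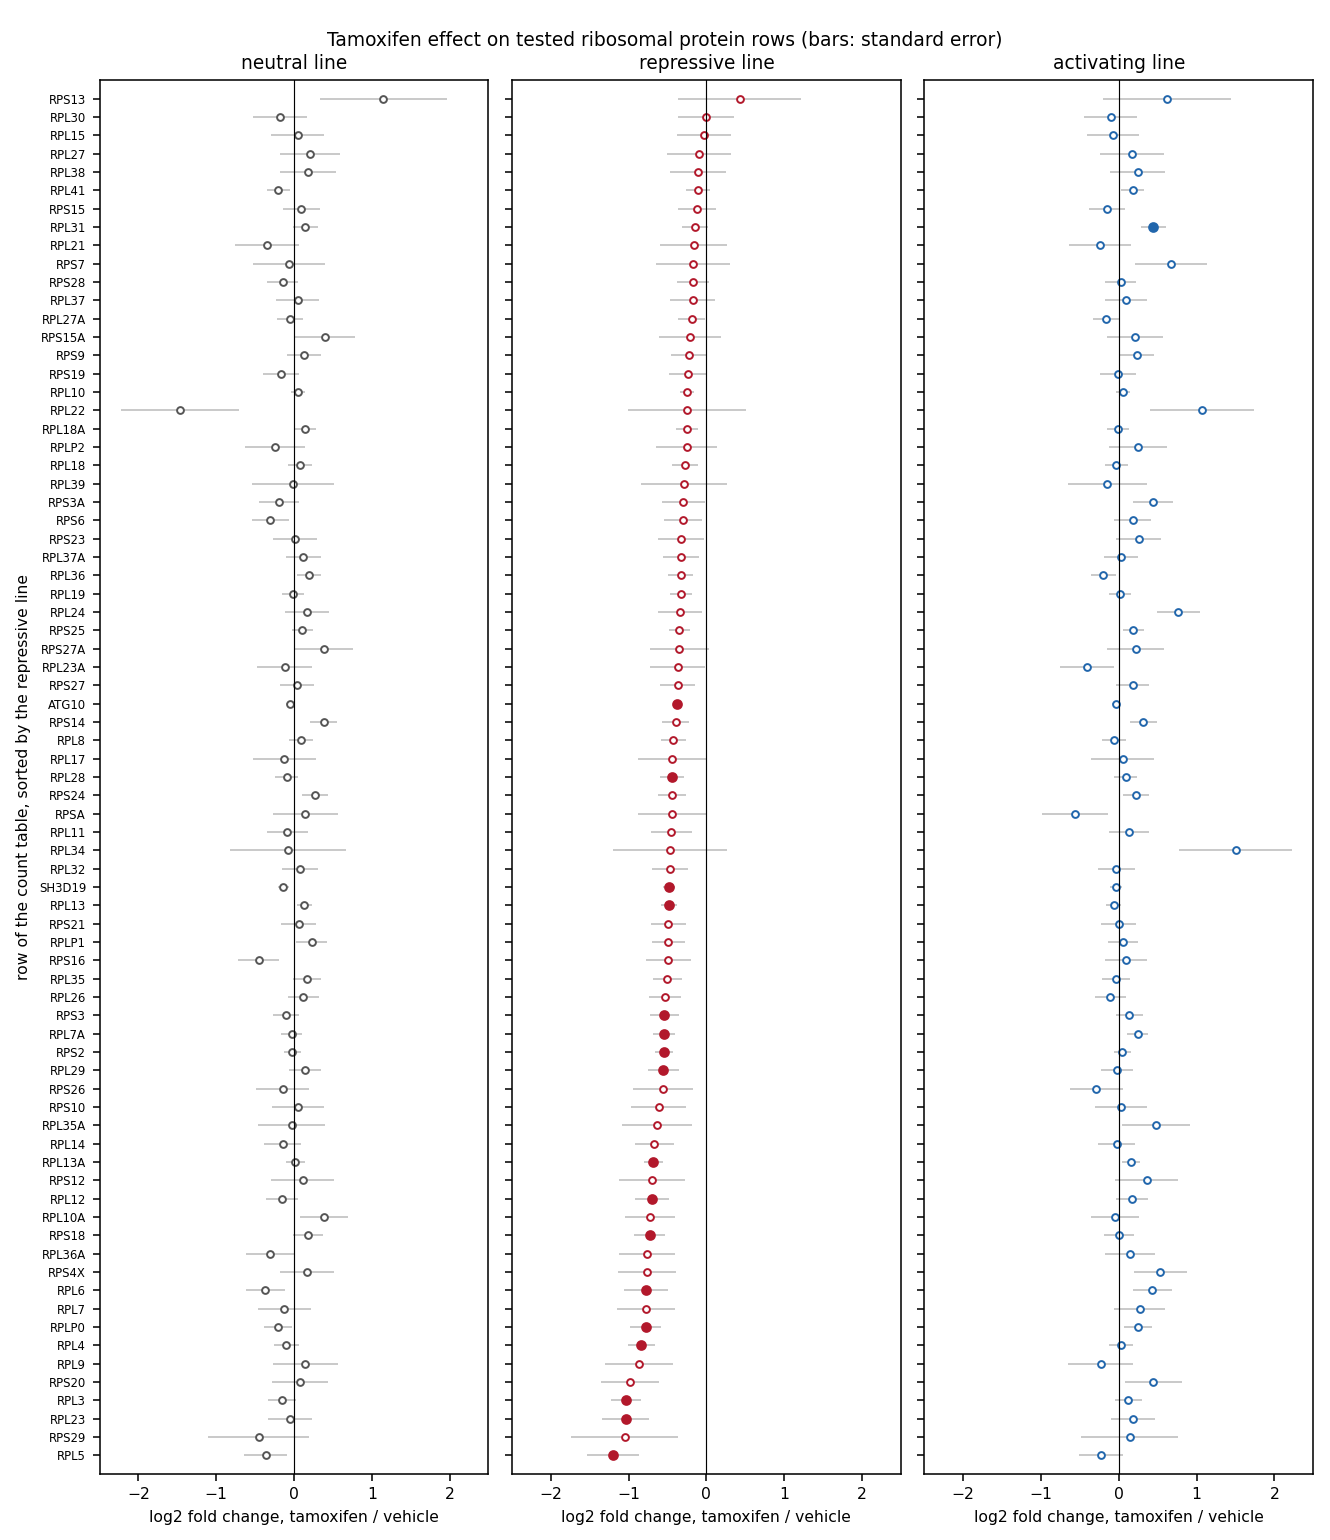
Log2 fold change of tamoxifen over vehicle (x axis) for 75 of the tested rows (y axis, sorted by the repressive line) in the neutral, repressive and activating lines; bars are standard errors and filled points have a DESeq2 adjusted p under 0.05. In the repressive line 74 of the 75 points lie left of 0 and 17 are filled, while 37 of 75 in the neutral and 26 of 75 in the activating panel do, with 0 and 1 filled points.

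The large subunit rows with the largest decreases included core assembly proteins. RPL5, which with RPL11 and the 5S rRNA forms the 5S particle that also binds MDM2, measured 30.4, 44.0 and 37.7 with vehicle and 11.6, 17.4 and 19.9 with tamoxifen (normalized counts, here and below). Its log2 fold change was -1.21 (SE 0.33, adjusted p = 0.00414, DESeq2), and its groups did not overlap. RPL23, another MDM2-binding protein, measured 70.3, 76.4 and 68.9 with vehicle and 32.0, 23.2 and 49.3 with tamoxifen, a log2 change of -1.04 (SE 0.30, adjusted p = 0.00691, DESeq2). All 3 of its tamoxifen values lay below the vehicle values, with replicate 3 the highest of them. Leaving out tamoxifen replicate 1 ended the call of RPL5 (-0.996, DESeq2 adjusted p = 0.0595), and leaving out tamoxifen replicate 2 that of RPL23 (-0.82, DESeq2 adjusted p = 0.0794). RPL5 also lost its call in a fit of the 2 groups alone, with the estimate at -1.21.

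RPL3, which lies close to the peptidyl transferase centre, measured 173, 191 and 170.0 with vehicle and 117, 76.6 and 65.0 with tamoxifen. It fell by 1.04 on the log2 scale (SE 0.19, adjusted p = 2.8e-06, DESeq2), with tamoxifen replicate 1 the highest of the treated libraries and still below each vehicle library. RPL4, part of the wall of the peptide exit tunnel, measured 183, 206 and 165 with vehicle and 108, 119.5 and 83.8 with tamoxifen, a log2 change of -0.84 (SE 0.17, adjusted p = 2.67e-05, DESeq2). RPL13A, which can leave the ribosome and repress translation after interferon gamma, measured 398, 404 and 393 with vehicle and 266, 247 and 232 with tamoxifen, a log2 change of -0.68 (SE 0.12, adjusted p = 9.11e-07, DESeq2). The 3 vehicle values of RPL13A were close together, and the treated values lay well below them. RPL7A measured 339, 341 and 279 with vehicle and 253, 208 and 196 with tamoxifen, a log2 change of -0.54 (SE 0.14, adjusted p = 0.00181, DESeq2). RPL13, among the rows with the most counts, measured 460.5, 539.9 and 452 with vehicle and 348, 339 and 350.0 with tamoxifen, a log2 change of -0.49 (SE 0.10, adjusted p = 7.43e-05, DESeq2). In RPL4, RPL7A and RPL13, too, the groups did not overlap.

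RPL6 measured 62.7, 64.7 and 39.5 with vehicle and 39.8, 26.7 and 30.4 with tamoxifen, with its highest treated value above its lowest vehicle value, and changed by -0.78 (SE 0.28, adjusted p = 0.0458, DESeq2). RPL29 measured 176, 169.8 and 110.2 with vehicle and 130.1, 80.1 and 98.5 with tamoxifen, and these groups overlapped as well, with a log2 change of -0.56 (SE 0.20, adjusted p = 0.049, DESeq2). RPL28 did not overlap, at 171, 158 and 147 with vehicle and 116, 103 and 129.9 with tamoxifen, and changed by -0.44 (SE 0.16, adjusted p = 0.0461, DESeq2). These 3 rows stood near the threshold: in 18 fits that each left out 1 of the libraries, the call of RPL6 remained in 7, that of RPL28 in 5 and that of RPL29 in 4, and edgeR called 0 of the 3. Their estimates over all alternatives lay between -0.97 and -0.63, -0.57 and -0.36, and -0.76 and -0.40.

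Of the stalk rows, RPLP0 passed and RPLP1 and RPLP2 did not, and the rows were not tested against each other. RPLP0, which anchors the stalk, measured 104, 113 and 95.5 with vehicle and 67.9, 53.4 and 59.7 with tamoxifen, a log2 change of -0.78 (SE 0.20, adjusted p = 0.00159, DESeq2). RPL12, at the base of the stalk, measured 111, 138 and 136 with vehicle and 93.2, 48.7 and 93.3 with tamoxifen, a log2 change of -0.70 (SE 0.22, adjusted p = 0.0143, DESeq2). The treated values of both lay below their vehicle values. The lowest value of RPL12 was tamoxifen replicate 2, and without that library the change was -0.46 with a DESeq2 adjusted p of 0.186. Leaving out vehicle replicate 2 or 3 also ended its call, at -0.65 and -0.66. The acidic stalk protein RPLP1 measured 78.8, 79.1 and 83.6 with vehicle and 57.3, 62.7 and 52.4 with tamoxifen without overlap, but its estimate of -0.49 did not pass (SE 0.21, adjusted p = 0.126, DESeq2). RPLP2, its partner, had a log2 change of -0.26 with a 95% interval of -1.02 to 0.51, which also covers the change of RPLP0.

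Of the small subunit rows, 5 of 31 fell, and in each of the 5 the treated values lay below the vehicle values. RPS2, at the entry of the mRNA channel, measured 483, 520.1 and 425 with vehicle and 356, 298 and 323 with tamoxifen, a log2 change of -0.55 (SE 0.11, adjusted p = 3.46e-05, DESeq2). RPS18, in the head of the subunit, measured 156, 193 and 185 with vehicle and 142, 91.7 and 87.0 with tamoxifen, a log2 change of -0.73 (SE 0.20, adjusted p = 0.00438, DESeq2). Tamoxifen replicate 1 of RPS18 lay closer to the vehicle libraries than the other 2, and without tamoxifen replicate 3 the change was -0.59 (DESeq2 adjusted p = 0.0631). RPS3, which touches the incoming mRNA, measured 124, 145 and 118 with vehicle and 84.4, 107 and 76.5 with tamoxifen, a log2 change of -0.54 (SE 0.18, adjusted p = 0.0269, DESeq2), and lost its call without tamoxifen replicate 1 (-0.50) or 3 (-0.43) or vehicle replicate 1 (-0.56) or 2 (-0.45), and in a fit of the 2 groups alone (-0.55).

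Other small subunit members had negative estimates that did not pass. RPS6, the substrate of S6 kinase, had a log2 change of -0.30 (SE 0.25, adjusted p = 0.54), RPS3A one of -0.30 (SE 0.28, adjusted p = 0.614) and RPS23, at the decoding centre, one of -0.32 (SE 0.29, adjusted p = 0.598), all by DESeq2. RPSA, also known as the laminin receptor precursor, had an estimate of -0.45 (95% interval -1.30 to 0.41). The estimate of RPS20 was -0.98, with a DESeq2 adjusted p of 0.0656. On the large subunit, RPL10, which joins late in assembly, measured 455, 497 and 554 with vehicle and 383, 428 and 458 with tamoxifen with an estimate of -0.25 (SE 0.09, adjusted p = 0.0632, DESeq2), and its treated replicate 3 lay above the lowest vehicle value. RPL10 passed with a filter at 50 counts (-0.25), with the opposite rows added (-0.26), with total-count scaling (-0.38) and without tamoxifen replicate 3 (-0.30) or vehicle replicate 1 (-0.31). RPL41 had an estimate of -0.11 with an interval of -0.42 to 0.20. RPL22, near the counting floor with 0 to 41 counts per library, had an interval of -1.74 to 1.25.

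Across these rows the share that passed followed the mean count of the row. It was 14 of 30 rows with a mean of at least 100 normalized counts, 2 of 17 between 50 and 100, and 1 of 30 below 50, while the median log2 fold changes were -0.49, -0.37 and -0.44 and the median SE rose from 0.17 to 0.24 and 0.39. Large subunit and stalk rows had a median of -0.45 (12 of 46 called) and small subunit rows one of -0.44 (5 of 31 called). Rows without an exon of another gene on the opposite strand had a median of -0.49 (13 of 52 called), and rows with one -0.33 (4 of 25 called). A pyrimidine run of at least 8 bases lay over the start of 8 of the 12 rows that fell and have an entry, and of 37 of the 50 that did not pass.

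**Figure D3:**
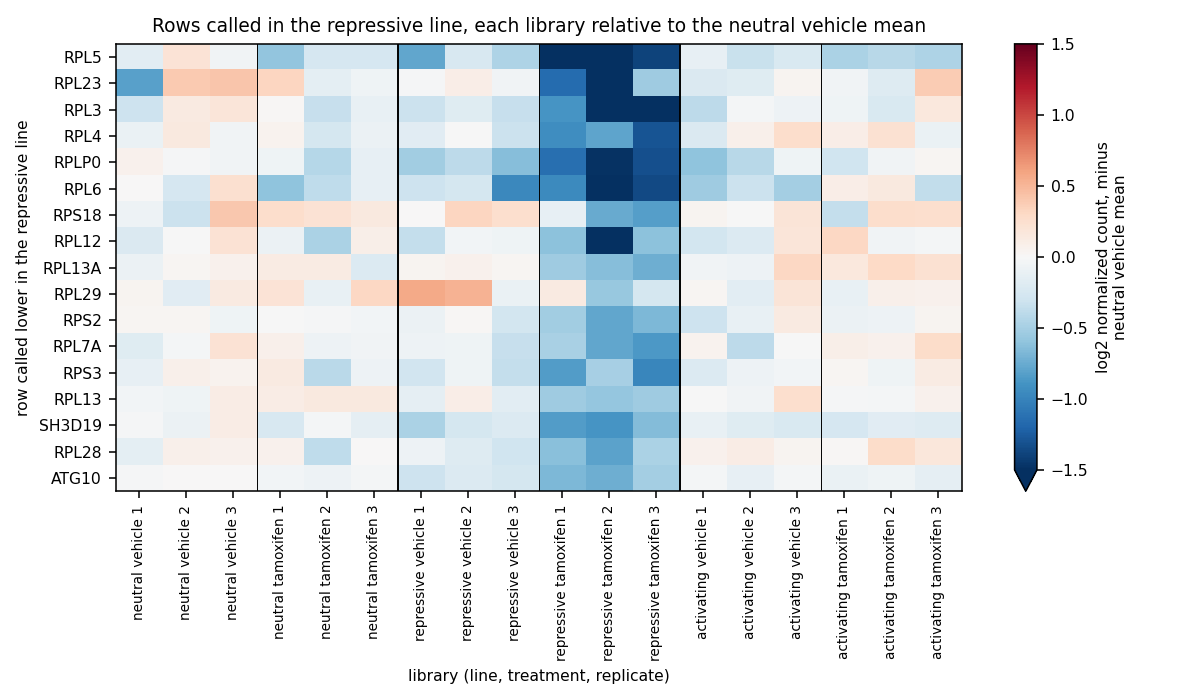
17 of the rows that fell in the repressive line (y axis) in each of the 18 libraries (x axis), as log2 normalized count minus the mean of the 3 neutral vehicle libraries; blue is lower, red is higher, and the darkest blue includes all values below -1.5. The 3 repressive tamoxifen columns are the bluest, and each row has its lowest group mean there. Replicate 1 of RPL29 (130.1 normalized counts) nevertheless lies above the neutral vehicle mean of 119. The rows were chosen by their fall in these libraries, so that these columns are bluer than the repressive vehicle columns follows from the choice.

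The rows opposite RPS23 and RPS3A fell as well, with much smaller errors at their higher counts. ATG10 measured 7283, 7815 and 7538 with vehicle and 5669, 5415 and 6343 with tamoxifen, a log2 change of -0.38 (SE 0.05, adjusted p = 3.09e-10, DESeq2), and RPS23 one of -0.32 (95% interval -0.90 to 0.25). SH3D19 measured 5367, 6214 and 6463 with vehicle and 4176, 4021 and 4751 with tamoxifen, a log2 change of -0.48 (SE 0.08, adjusted p = 1.4e-08, DESeq2), and RPS3A one of -0.30 (95% interval -0.85 to 0.25). At both loci the treated libraries of the opposite row lay below every vehicle library, and the interval of the ribosomal protein row covered the change of its partner.

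Another 4 rows that overlap a ribosomal protein gene on the other strand averaged at least 50 normalized counts. KB-1208A12.3, opposite RPL30, measured 3928, 4423 and 4007 with vehicle and 3209.6, 3258 and 3672 with tamoxifen in the repressive line and changed by -0.29 (SE 0.07, DESeq2 adjusted p = 0.000816), while RPL30 itself had an estimate of -0.01 (SE 0.36). CTD-2514K5.2, opposite RPL38, measured 66.5, 47.6 and 89.1 with vehicle and 29.1, 27.9 and 33.5 with tamoxifen and changed by -1.16 (SE 0.28, DESeq2 adjusted p = 0.000694), and the estimate of RPL38 was -0.11 (SE 0.36). AC010761.8, opposite RPL23A, changed by -0.20 (SE 0.07, DESeq2 adjusted p = 0.049), and the estimate of RPL23A was -0.37 (SE 0.35). All treated values lay below the vehicle values for KB-1208A12.3 and CTD-2514K5.2, and the groups overlapped for AC010761.8, although all 3 rows passed. AC016738.4, which overlaps RPL31 by 16 bases, had an estimate of 0.21 (SE 0.24) and did not pass.

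**Figure D4:**
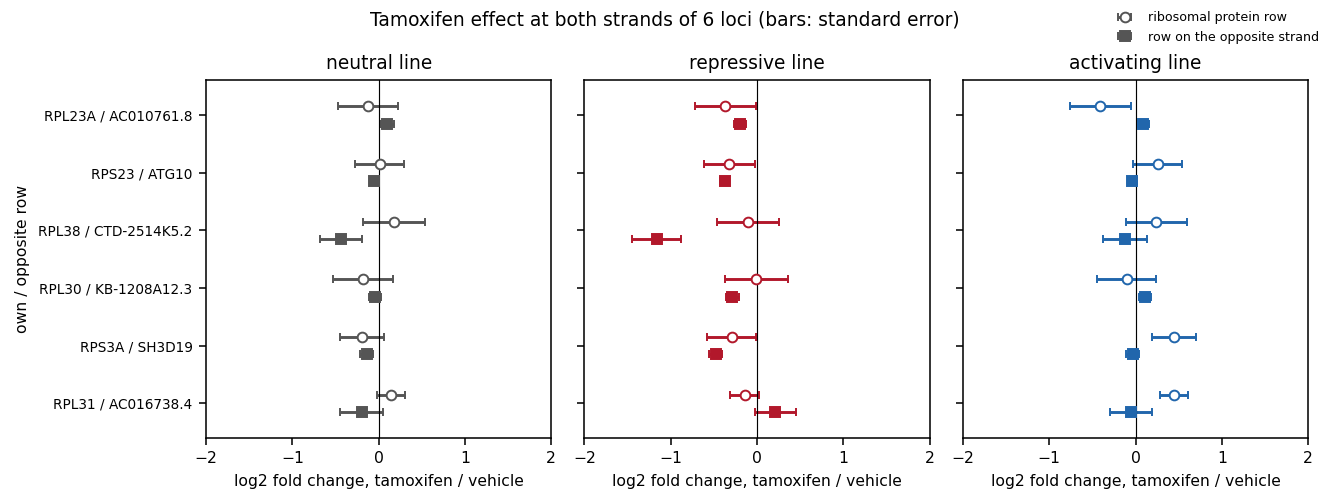
Log2 fold change of tamoxifen over vehicle (x axis) at 6 loci (y axis) for the ribosomal protein row (open circle) and the row on the opposite strand (filled square), in the 3 lines; bars are standard errors. In the repressive line 5 of the 6 opposite rows lie left of 0, from -1.16 at CTD-2514K5.2 to -0.20 at AC010761.8, and AC016738.4 lies right of it.

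Tamoxifen in the neutral line, where the construct has no effector, addressed the effect of the drug and of the DNA-binding domain alone. Here 0 of 79 rows passed by DESeq2, against 0.774% of all rows, and 45 of the 79 had an adjusted p. At an unadjusted p under 0.05, 1 row was higher (RPS14, 0.38, SE 0.17) and 0 were lower, against 3.9% and 3.85% of all rows, and edgeR also called 0. All treated values lay below all vehicle values in 6 rows and above them in 4, against 6.65% and 6.62% of all rows. The median log2 fold change was -0.01, with 40 negative and 39 positive estimates. For the rows that fell in the repressive line the neutral intervals were narrow around 0 in RPL13A (-0.21 to 0.25), RPS2 (-0.23 to 0.19) and ATG10 (-0.16 to 0.06). RPL3 measured 174, 237 and 245 with vehicle and 219, 169.5 and 200.4 with tamoxifen, and the groups overlapped. RPLP0 measured 155, 147 and 144 with vehicle and 142, 110.1 and 136 with tamoxifen, with all treated values below the vehicle values and a log2 change of -0.20 (SE 0.18). RPL5 measured 46.8, 60.3 and 50.2 with vehicle and 34.7, 43.8 and 43.8 with tamoxifen, again without overlap, with an estimate of -0.37 (SE 0.28). Neither RPLP0 nor SH3D19 (-0.14, SE 0.07) passed, and RPL5 had no adjusted p.

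The remaining members of the fixed list also stayed short of the threshold in the neutral line. RPLP1 had an estimate of 0.23, RPL10 0.05, RPL41 -0.20, RPS6 -0.30, RPS18 0.18 and RPS23 0.01 on the log2 scale. For RPLP2, RPSA, RPL22 and RPS3A the estimates were -0.24, 0.14, -1.47 and -0.19, and independent filtering left them without an adjusted p.

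In the activating line, where the construct carries VP64, 2 of 79 rows rose and 0 fell, against 1.34% and 1.46% of all rows. An adjusted p was available for 53 of the 79. RPL31, a protein near the exit of the peptide tunnel, measured 168, 134 and 135 with vehicle and 183, 205 and 207 with tamoxifen, a log2 change of 0.45 (SE 0.16, adjusted p = 0.0475, DESeq2). Its treated values lay above its vehicle values. Leaving out 1 library ended the call of RPL31 in 14 of 18 fits, its estimates lay between 0.26 and 0.56 over all alternatives, and edgeR called 0 rows. The median of the 79 rows was 0.12, against -0.0003 over all rows, and 53 estimates were positive. All treated values lay above all vehicle values in 9 rows and below them in 1, RPL5, against 7.84% and 8.18% of all rows.

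The rows that fell in the repressive line did not pass in the activating line, where RPL5 had no adjusted p. RPL3 measured 165, 212 and 205 with vehicle and 207, 185 and 241 with tamoxifen, with overlapping groups and a log2 change of 0.12 (SE 0.18). The estimate of RPL13A was 0.16 (95% interval -0.07 to 0.38), that of RPLP0 0.24 (-0.11 to 0.60) and that of RPS18 0.002 (-0.38 to 0.39). ATG10 measured 8828, 8303 and 8808 with vehicle and 8401, 8660.3 and 8228 with tamoxifen with an estimate of -0.04, and SH3D19 had one of -0.03, both with overlapping groups. Estimates for the other fixed members were 0.05 for RPLP1, 0.25 for RPLP2, -0.57 for RPSA, 0.05 for RPL10, 0.18 for RPL41, 1.07 for RPL22, 0.18 for RPS6, 0.44 for RPS3A and 0.25 for RPS23. None passed, and RPLP2, RPSA and RPL22 had no adjusted p.

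Interaction terms of the model tested whether the tamoxifen effect itself differed between lines. Relative to the neutral line, 11 of 79 rows had a lower effect in the repressive line and 0 a higher one, against 1.51% and 2.34% of all rows, with a median difference of -0.46 over the 79 and -0.03 over all. Among them were RPL13A (-0.70, SE 0.17, adjusted p = 0.00135, DESeq2), RPL13 (-0.62, SE 0.14, adjusted p = 0.000705, DESeq2) and ATG10 (-0.33, SE 0.08, adjusted p = 0.000804, DESeq2). Only these 3 calls were kept in all alternatives that held the row. Rows that fell within the repressive line but did not pass here included RPL5 (-0.84, DESeq2 adjusted p = 0.262) and RPL23 (-0.99, DESeq2 adjusted p = 0.133). The same held for RPL6, RPL7A, RPL12, RPL28, RPL29, RPLP0 and RPS3. The list of 11 also held RPS14 and RPS24, which had not passed within the repressive line. RPS14 measured 216, 199 and 153 with vehicle and 174, 130.0 and 127 with tamoxifen in that line and 155, 181 and 180.3 with vehicle and 232, 196 and 245 with tamoxifen in the neutral line, higher with tamoxifen in the second. edgeR called 5 of the 11, and leaving out 1 library gave between 4 and 14. The count was 4 without neutral vehicle replicate 1 or repressive tamoxifen replicate 2, 5 without neutral tamoxifen replicate 1, 6 without repressive tamoxifen replicate 3 and 7 without neutral vehicle replicate 2.

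Relative to the repressive line, 13 of 79 rows had a higher effect in the activating line and 0 a lower one, against 1.63% and 2.61% of all rows. This comparison shares the 6 repressive libraries with the previous one. The largest differences beyond the threshold were at RPL23 (1.22), RPL6 (1.21), RPL3 (1.16) and RPLP0 (1.02). Those of RPL3 and RPLP0 remained in every alternative, whereas those of RPL6 and RPL23 were lost in 8 and 11 of the 18 fits without 1 library and with edgeR. Between the activating and the neutral line 0 rows differed by DESeq2, with an adjusted p for 49 of the 79, against 0.619% of all rows. edgeR also gave 0, and at an unadjusted p under 0.05 there were 3 higher, RPL22 and RPL6 among them, and 0 lower, against 3.65% and 3.77% of all rows.

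Among vehicle libraries, which compare the lines before induction, the ribosomal protein rows on their own strand had 0 calls in any pair of lines. In the repressive against the neutral line the opposite rows ATG10 and SH3D19 were lower, 2 of 79 rows against 1.51% of all rows, with 0 higher against 0.997%. ATG10 measured 8925, 9057 and 9078 in the neutral and 7283, 7815 and 7538 in the repressive vehicle libraries, a log2 change of -0.26 (SE 0.05, adjusted p = 0.000169, DESeq2). SH3D19 measured 7336, 6999.5 and 8048 and 5367, 6214 and 6463, a log2 change of -0.31 (SE 0.08, adjusted p = 0.002, DESeq2). The groups did not overlap in either row, and both calls held in every alternative that kept the 2 rows separate. RPLP0 was closest to the threshold among the others, at -0.51 (DESeq2 adjusted p = 0.0803).

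ATG10 was higher in the activating than in the repressive vehicle libraries by 0.20 (SE 0.05, adjusted p = 0.0136, DESeq2), the 1 row of 79, against 0.739% of all rows, with 0 lower against 0.98%. It lost this call with edgeR, in a fit of these 2 groups alone, without activating vehicle replicate 3 (0.18, DESeq2 adjusted p = 0.156) and without repressive vehicle replicate 1 (0.17, DESeq2 adjusted p = 0.0785). Between the activating and the neutral vehicle libraries 0 of 79 rows passed by DESeq2, of which 12 had an adjusted p, and 0 by edgeR, against 0.808% of all rows, and 2 were lower at an unadjusted p under 0.05 (RPL41 and SH3D19) and 0 higher, against 3.97% and 3.13%.

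Other genes of the translation machinery were counted in the repressive line for comparison. The counts below stand against 4.02% lower and 5.62% higher of all rows. Of 20 further TOP mRNAs, 18 were tested and 4 fell: the poly(A)-binding protein PABPC1 (-0.92, SE 0.18), the elongation factors EEF2 (-0.80, SE 0.11) and EEF1A1 (-0.74, SE 0.14), and EEF1G (-0.43, SE 0.15), with DESeq2 adjusted p of 7.78e-06, 2.5e-10, 2.12e-06 and 0.0299. All 18 estimates of this list were negative, with a median of -0.56. In the neutral line 0 of the 18 passed, of which 7 had an adjusted p, against 0.774% of all rows. In the activating line 0 of the 18 passed, of which 10 had an adjusted p, against 1.34% higher and 1.46% lower of all rows. Among vehicle libraries, EEF2 (-0.34, DESeq2 adjusted p = 0.0416) and EIF3L (-1.17, DESeq2 adjusted p = 0.0103) were already lower in the repressive than in the neutral line. Mitochondrial ribosomal proteins, which serve a separate ribosome, had a median of -0.20, and 2 of 23 tested rows fell, MRPS16 (-2.75, SE 0.98) and MRPS18C (-0.56, SE 0.17). MRPS16 lay near the counting floor, at 9.62 ± 5.04 normalized counts with vehicle and 1.48 ± 1.80 with tamoxifen (SD). Of 26 ribosome assembly factors, 10 were tested, with a median of -0.04, and NOC2L rose (1.16, SE 0.38). NOC2L averaged 16.6 ± 3.28 normalized counts with vehicle and 37.2 ± 1.05 with tamoxifen in the repressive line (SD, n = 3 each). Its means moved the same way in the neutral line, from 12.4 to 27.4, and in the activating line, from 19.2 to 43.5. NOC2L passed in neither of these lines, in each of which 3 of the 10 assembly factors tested had an adjusted p.

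Of 14 genes of translation control 5 were tested, and DDIT4, an inhibitor of mTOR signalling, fell (-0.99, SE 0.26, DESeq2 adjusted p = 0.00282). The 7 ribosomal or ribosome-bound genes with other names, such as FAU, gave 3 tested rows and 0 calls in the tamoxifen comparisons. Of 849 rows named as processed copies of ribosomal protein genes, 692 were at 0 in every library, 10 were tested and 0 passed in any of the 9 comparisons. Together the copies held 0.0287% of all counts. Reads shared between a gene and its copies cannot be told apart. In the activating line the only call in these 6 lists was NOP16, an assembly factor, at 0.28 (DESeq2 adjusted p = 0.0475), and in the neutral line there was 0. In both of these lines each of the 6 lists had tested rows without an adjusted p.

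Of the 6 basal markers, all tested, 3 rose in the repressive line, KRT5 (0.43), KRT15 (1.00) and ITGB4 (0.95), with 5 positive estimates and 1 negative, at -0.58. Of all rows, 5.62% rose and 4.02% fell there. In the neutral line, where 0 ribosomal protein rows passed, 3 rose as well, KRT5 (0.37), KRT14 (0.45) and ITGB4 (0.92), with 6 positive estimates. The share of all rows that passed in that line, in either direction, was 0.774%. In the activating line KRT14 rose (0.43) and the luminal keratin KRT8 fell (-0.33), against 1.34% higher and 1.46% lower of all rows. Of the 6 luminal markers 3 were tested, and 0 passed with tamoxifen in the repressive or the neutral line. Among vehicle libraries, KRT8 was already higher in the repressive than in the neutral line (0.30, DESeq2 adjusted p = 0.0101), against 0.997% of all rows. It was lower in the activating than in the repressive line (-0.30, DESeq2 adjusted p = 0.0129), against 0.98% of all rows. The part of these markers in the decrease was not tested.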

How the data were processed

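Stranded mRNA libraries of 18 RWPE1 cultures were sequenced. The authors ran nf-core/rnaseq on GRCh37 and quantified genes with Salmon 1.9.0 (submitters' processing notes), and the deposited table holds expected counts (salmon's estimated counts), not scaled for depth or length. Of its values 1.10% were not whole, and all were rounded. Row positions came from GENCODE exons on GRCh37, to which 84 of the 85 members were matched, and start sequences from RefSeq on GRCh38.p14.

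Rows that reached 10 counts in 3 or more libraries entered 1 DESeq2 model (1.42.0, R 4.3.3; the authors used 1.28.0) with a mean per group, median-of-ratios size factors, Wald tests, independent filtering and Benjamini-Hochberg adjustment over all 5816 rows. Called rows have an adjusted p under 0.05. Fold changes are unshrunken and intervals are 95% Wald intervals. The fit was tested on simulated counts. Within groups, the chi-square per degree of freedom between libraries was 2.84 to 3.79, so no library was a copy of another.

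The alternatives were edgeR 4.0.16 with TMM, total-count scaling, filters at 50 counts or none, no independent filtering, a replicate block, only the groups compared, member and opposite rows added, and leaving out each library. The members and lists were chosen with earlier results of these data known. The rule names 16 fixed members, up to 10 called rows a direction, the 5 rows with the most counts, untested members and opposite rows of at least 50 mean counts; the other called rows, RPS20, RPS25 and AC016738.4 were added after their values were seen, and outside the tamoxifen comparisons fixed members are named where called. A few members are not reported here by name, and are included in the counts. Floors cover counting error only.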

Additional observations from a re-analysis of the deposited data

Results flagged for a closer look

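In 11 rows the tamoxifen effect differed between the repressive and the neutral line by a test of the difference itself (DESeq2 interaction, adjusted p under 0.05, here and below). All 11 differences were negative on the log2 scale. Those reported here were -0.91 in RPS18, -0.88 in RPL3, -0.78 in RPS14, -0.74 in RPL4, -0.72 in RPS24, -0.70 in RPL13A, -0.62 in RPL13, -0.53 in RPS2, -0.34 in SH3D19 and -0.33 in ATG10. The largest adjusted p was 0.0438, at RPS24, and the smallest 0.000705, at RPL13.

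In 13 rows the effect differed between the activating and the repressive line. All 13 were positive, as activating minus repressive, and those reported here were 1.22 in RPL23, 1.21 in RPL6, 1.16 in RPL3, 1.02 in RPLP0, 0.86 in RPL4, 0.84 in RPL13A, 0.78 in RPL7A, 0.59 in RPS2, 0.45 in SH3D19, 0.42 in RPL13 and 0.34 in ATG10. RPL13 stood closest to the threshold, with an adjusted p of 0.0495, and RPL13A farthest from it, with 3.64e-05. Both sets use the same 6 repressive libraries.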

How the results depend on the processing

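In the repressive line the 19 called rows had negative estimates under every alternative that held the row. Of the calls, 10 were kept in all such alternatives, among them RPL3, RPL4, RPL7A, RPL13, RPL13A, RPLP0, RPS2, ATG10 and SH3D19. With member and opposite rows added, ATG10 and SH3D19 had no row of their own. Total-count scaling gave 32 calls, with a median of -0.58 over the members and a shift of -0.16 in the median of all rows, and it raised the calls to 17 for the repressive minus neutral difference and 25 for the activating minus repressive difference. edgeR gave 16 calls in the repressive line, all among the 19, and 5 for the repressive minus neutral difference. In the activating line the 2 calls became 0 with edgeR, without independent filtering, with only the groups compared and with the replicate block, and 1 without a filter or with opposite rows added. The ATG10 call between vehicle libraries became 0 with edgeR and with only the groups compared.

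The replicate numbers did not pair the libraries: the deviations of libraries with the same number correlated between -0.30 and 0.14 over 9 pairs, 2 of them over 0.1. With the replicate block 19 rows were called in the repressive line, 17 of them among the 19.

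Leaving out 1 library gave 14 to 23 calls in the repressive line, 0 to 3 in the activating line, 4 to 14 for the repressive minus neutral difference and 0 to 1 for activating against repressive vehicle. Among rows that had not passed, ATG10 in activating against neutral vehicle turned sign with total-count scaling, at 0.0063. RPS23 with ATG10 added was at -0.049 in the neutral and -0.033 in the activating line. RPS3A with SH3D19 added was at -0.028 in the activating line. These signs differ from those of RPS23 and RPS3A alone. The own row held a median of 1.08% and 0.911% of the added counts. The added estimates therefore lie close to those of ATG10 (-0.050 and -0.037) and SH3D19 (-0.034) and do not test the own rows. Without 1 library the range crossed 0 for RPL13A (-0.037 to 0.12), RPSA (-0.068 to 0.30), RPLP2 (-0.45 to 0.063) and RPS23 (-0.10 to 0.18) in the neutral line, RPL22 (-0.94 to 0.78) and RPLP2 (-0.46 to 0.021) in the repressive line, SH3D19 (-0.059 to 0.0014), RPS6 (-0.034 to 0.32), RPLP1 (-0.10 to 0.21) and RPS18 (-0.10 to 0.18) in the activating line, and ATG10 (-0.011 to 0.036) for activating minus neutral.

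With under 100 counts in 47 of the 77 own-strand rows tested, low counts limited what could be called. The median SE in the repressive line was 0.24 for rows of 50 to 100 and 0.39 for rows under 50 mean counts. Why the counts of these rows were low was not tested. Counts of 0 do not show that a gene was silent.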
